A study of Mus musculus with 6 samples.

Results

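The genes described here are the nuclear receptors for retinoic acid (Rara, Rarb, Rarg, Rxra, Rxrb and Rxrg) and Stra8, a germ cell gene that retinoic acid induces. They were chosen by name, as all transcripts of the table whose identifiers belong to these 7 genes in the GENCODE mouse annotation. The table lists 14 of their 45 annotated transcripts, which come from 6 of the 7 genes, among 27120 transcripts of 14000 genes in all. Rarb has no listed transcript and its level was not analysed here.

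Testes of 6 C57BL/6N males gave poly(A) RNA for sequencing. They form 2 groups of 3 that the labels call H+Cd and H+H+Cd and the study HFD1D and HFD2D. HFD1D males were sons of fathers fed a high-fat diet (HFD) from week 5 to week 15 of life, which is 1 paternal HFD generation. HFD2D males were a generation later and had 2 successive paternal HFD generations, so that generation and diet history cannot be told apart. All 6 males drank cadmium chloride (CdCl2), which harms the testis, for 10 weeks and were killed at 15 weeks of age. Males were kept from separate litters, and the whole testis was used. Groups without cadmium or without paternal HFD were not analysed here, so each comparison is between 2 cadmium-treated groups.

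Retinoic acid is made from vitamin A inside the testis and acts in the nucleus. A retinoic acid receptor (RAR) pairs with a retinoid X receptor (RXR) on DNA at repeats of a short core motif. Without ligand the pair holds corepressors on its target genes, and retinoic acid exchanges them for coactivators. RXRs are also the shared partners of thyroid hormone, vitamin D, liver X and peroxisome proliferator-activated receptors. In mice Rara acts in both Sertoli cells and germ cells, Rarg is best known from spermatogonia, and Rxrb from Sertoli cells. Spermatogonia answer retinoic acid by differentiating, and later by switching on Stra8, whose product works with Meiosin to start the meiotic programme.

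The RAR genes encode proteins that differ at their amino end, because alternative promoters join different first coding exons to a shared body. The listed Rara transcripts differ in this start, so the coding start of the alpha1-type transcripts is shown 5′ to 3′ (GENCODE M21, mm10). Capitals mark bases that belong to that start alone, and lower case marks the first 12 bases of the shared body. Rara-202 (ENSMUST00000107473.2) starts downstream and encodes the alpha2-type end. Rara-204 (ENSMUST00000107475.8) carries the alpha1-type end, over chr11:98950618-98966358 on the plus strand, an intron included, and Rara-201 (ENSMUST00000068133.9) and Rara-203 (ENSMUST00000107474.7) have the same coding sequence as Rara-204. After 169 or 178 bases of their own, both kinds share 1208 coding bases.
Rara-204: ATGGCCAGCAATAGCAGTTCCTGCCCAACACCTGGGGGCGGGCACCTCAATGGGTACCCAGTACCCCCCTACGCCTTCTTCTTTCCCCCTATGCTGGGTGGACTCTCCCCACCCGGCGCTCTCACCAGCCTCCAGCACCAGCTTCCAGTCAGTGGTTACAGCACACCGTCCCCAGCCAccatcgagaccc

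Rarg is built in the same way. Its listed transcripts, Rarg-201 (ENSMUST00000043172.14) and Rarg-202 (ENSMUST00000063339.13), begin with 183 and 150 coding bases of their own and share the next 1191. They are shown with the same use of capitals, because a single library differs from the other 5 in which of them it lists. The stretches run over chr15:102241974-102252602 and chr15:102241974-102246210 on the minus strand, introns included.
Rarg-201: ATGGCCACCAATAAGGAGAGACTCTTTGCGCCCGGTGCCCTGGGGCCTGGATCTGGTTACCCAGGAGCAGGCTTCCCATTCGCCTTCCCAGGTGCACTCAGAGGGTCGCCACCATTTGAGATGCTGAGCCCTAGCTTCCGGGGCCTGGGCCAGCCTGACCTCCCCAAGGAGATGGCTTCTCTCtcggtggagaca
Rarg-202: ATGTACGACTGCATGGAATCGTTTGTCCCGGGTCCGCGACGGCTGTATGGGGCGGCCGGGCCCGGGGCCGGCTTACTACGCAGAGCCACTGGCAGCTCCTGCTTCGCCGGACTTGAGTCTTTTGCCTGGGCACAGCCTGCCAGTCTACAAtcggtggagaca

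Stra8 differs in another manner. The coding sequence of ENSMUST00000114997.2, here the short Stra8 transcript (846 coding bases), is the in-frame 3′ part of that of ENSMUST00000114999.7, the long Stra8 transcript (1179 coding bases), and lacks its first 333 bases or 111 codons. The 60 bases of the long transcript around the first shared base are shown, over chr6:34930918-34933007 on the plus strand with an intron included, and capitals mark the part that both have. The short transcript begins its coding sequence at the ATG that opens the capitals.
Long Stra8 transcript: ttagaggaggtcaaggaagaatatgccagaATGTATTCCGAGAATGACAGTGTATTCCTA

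Promoter windows of 250 bases before to 50 bases after a start (RefSeq, GRCm38.p6, the same assembly as mm10) were searched on both strands for the receptor core motif, written as AGGTCA. The related words AGTTCA as well as GGGTCA and likewise GGTTCA were counted too. The 7 genes have 14 such windows, and 8 of them hold a core motif, against 43.7% of all 32851 windows. The window of Stra8, chr6:34920698-34920997 on the plus strand, is shown as that of the retinoic acid-induced gene of the set. Its 2 AGGTCA motifs, in capitals, lie 194 and 38 bases before the start, and 13.1% of all windows hold 2 or more motifs.
Stra8 promoter: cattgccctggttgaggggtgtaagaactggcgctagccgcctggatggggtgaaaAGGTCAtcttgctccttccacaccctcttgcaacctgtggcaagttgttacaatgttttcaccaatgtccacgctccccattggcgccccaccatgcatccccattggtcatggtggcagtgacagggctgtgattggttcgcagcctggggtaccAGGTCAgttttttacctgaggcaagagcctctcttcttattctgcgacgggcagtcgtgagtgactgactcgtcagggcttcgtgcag

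A direct repeat of the motif spaced by 5 bases, the arrangement best known from the Rarb promoter, was in 1 of the 14 windows, that of Rarb itself. Of all windows, 32 (0.0974%) hold one. The repeat, in capitals, is at chr14:16575505-16575537 on the minus strand and begins 53 bases before the start. Repeats spaced by 1 or 2 bases were searched for too and were in no member window, against 0.222% and 0.268% of all windows. A motif match is a description of the sequence, not a bound site.
Rarb promoter repeat: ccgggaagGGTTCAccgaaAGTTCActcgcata

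Levels are in FPKM, a fragment number divided by the length of the transcript and the mapped total of the library, and a gene's level is the sum over its listed transcripts. Stra8 and Rxra were the most abundant of the 6 genes, at 5.58 to 10.4 and 5.58 to 8.65 FPKM over the 6 libraries, ranges that overlap. Rara came next at 3.64 to 5.08 FPKM, below every Rxra value. Rxrb at 0.571 to 2.29 FPKM and Rarg at 0.843 to 1.34 FPKM overlapped each other and lay below Rara. Rxrg had 0.348 to 0.606 FPKM, below every Rarg value but not below the lowest Rxrb value. Among the 14000 genes Stra8 ranked 6133rd and Rxrg 13362nd by mean level. Within the receptor families, Rara made up 76.6% to 84.5% of the RAR sum and Rxra 66.7% to 85.4% of the RXR sum.

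On mm10, Rxra (ENSMUSG00000015846.14) lies at chr2:27676440-27762957, Rxrb (ENSMUSG00000039656.17) at chr17:34031812-34038399, Rxrg (ENSMUSG00000015843.10) at chr1:167598384-167639623 and Stra8 (ENSMUSG00000029848.11) at chr6:34920163-34939344, all on the plus strand. Rarg (ENSMUSG00000001288.15) is on the minus strand at chr15:102234938-102257517. Rara (ENSMUSG00000037992.16), at chr11:98927818-98974942 on the plus strand, overlaps the small gene Gm22061 on the same strand.

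**Figure D1:**
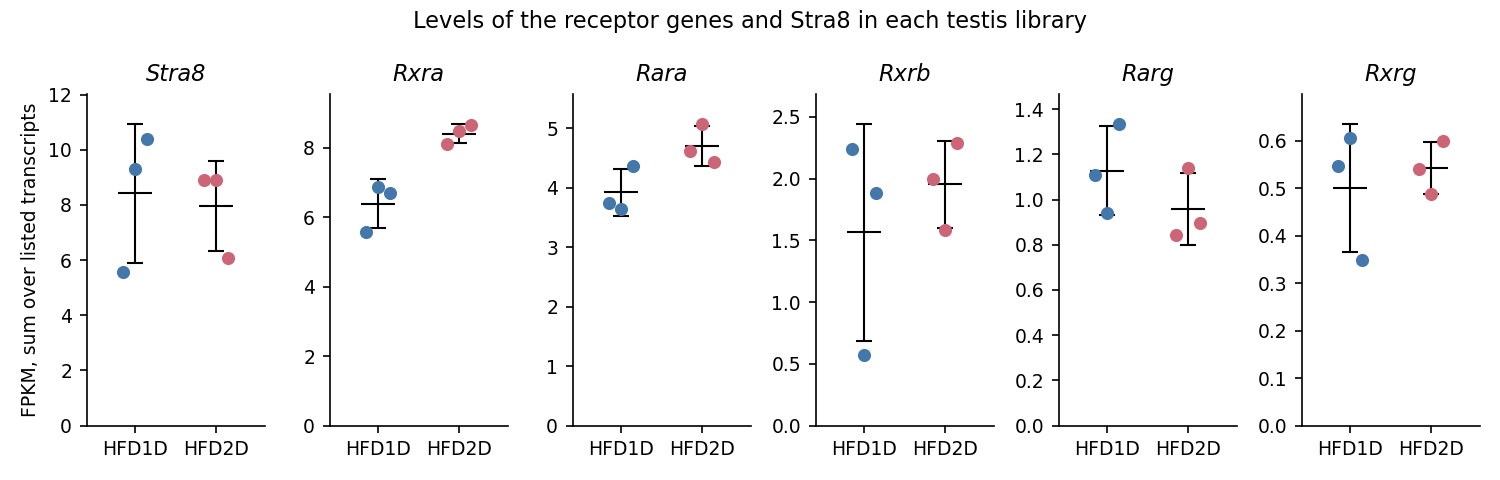
FPKM of the 6 listed genes in each library, with points for single testes and bars for the mean ± SD of 3 libraries per group. The HFD2D points of Rxra and Rara all lie above the HFD1D points, and the points of the other 4 genes overlap.

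Rxra, the main RXR of the testis libraries, had higher values in all 3 HFD2D testes. It read 5.58, 6.87 and 6.71 FPKM in HFD1D replicates 1, 2 and 3 and 8.10, 8.48 and 8.65 FPKM in HFD2D replicates 1, 2 and 3. The groups did not overlap, and the lowest HFD2D library was 8.10 FPKM against a highest HFD1D library of 6.87. Means were 6.39 ± 0.702 and 8.41 ± 0.283 FPKM (SD, n = 3 per group), a ratio of 1.32. The log2 fold change in FPKM + 1 was 0.35 (SE 0.10, 95% confidence interval 0.122 to 0.584), and its adjusted p of 0.358 in limma did not pass 0.05. With a library left out, the log2 fold change ran from 0.27 to 0.40.

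Rara, the RAR on which male fertility depends in mice, showed the same order at a smaller size. Its values were 3.75, 3.64 and 4.37 FPKM in HFD1D and 4.61, 5.08 and 4.43 FPKM in HFD2D. The groups did not overlap, but HFD1D replicate 3 lay only just under the lowest HFD2D library. Means were 3.92 ± 0.394 and 4.70 ± 0.335 FPKM (SD, n = 3), and the log2 fold change was 0.21 (interval -0.023 to 0.453, adjusted p = 0.449). This level sums transcripts of unequal length, 3384 bases for Rara-201 and 3238 for Rara-202 against 2380 for Rara-203 and 2469 for Rara-204. The same fragments give a higher FPKM on a shorter transcript, so the sum also depends on the isoform split described below. How far that moved the Rara sum was not tested.

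Rarg had 1.11, 0.943 and 1.34 FPKM in HFD1D and 0.843, 1.14 and 0.894 FPKM in HFD2D. The groups overlapped, and the log2 fold change of -0.12 (-0.405 to 0.169, adjusted p = 0.699) did not pass. It ran from -0.18 without HFD1D replicate 2 or HFD2D replicate 2 to -0.049 without HFD1D replicate 3, and was -0.075 without HFD2D replicate 1. Summed, Rara and Rarg ran from 4.58 to 5.70 FPKM in HFD1D and from 5.32 to 6.22 FPKM in HFD2D, with overlap.

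Rxrb, which in mice is needed in Sertoli cells for sperm release, had 2.24, 0.571 and 1.88 FPKM in HFD1D, and 2.00, 1.58 and 2.29 FPKM in HFD2D. A single library, HFD1D replicate 2, was far below the rest. The log2 fold change was 0.26 (-0.422 to 0.951, adjusted p = 0.719), and -0.06 without that library. Rxrg, mostly a gene of muscle and brain, had 0.547, 0.606 and 0.348 FPKM in HFD1D and 0.540, 0.489 and 0.599 FPKM in HFD2D (log2 fold change 0.04, -0.225 to 0.312, adjusted p = 0.893). The RXR sum was 8.37, 8.05 and 8.94 FPKM in HFD1D and 10.6, 10.6 and 11.5 FPKM in HFD2D, without overlap. RXR exceeded RAR in each library, by 1.57 to 1.76 times in HFD1D and 1.70 to 2.17 times in HFD2D, ranges that overlap.

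Stra8 varied more among testes of a group than between groups. It had 5.58, 9.29 and 10.4 FPKM in HFD1D and 8.92, 8.91 and 6.08 FPKM in HFD2D. The lowest libraries were HFD1D replicate 1 and HFD2D replicate 3, and the groups overlapped almost wholly. Means were 8.42 ± 2.52 and 7.97 ± 1.64 FPKM (SD, n = 3), with a log2 fold change of -0.05 (-0.637 to 0.538, adjusted p = 0.948). The interval allows a change of FPKM + 1 in either direction that is larger than that of Rxra. Leaving out HFD1D replicate 1 gave -0.29, and leaving out other libraries gave up to 0.11.

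In the count over the 6 genes, limma called 0, with 1 (Rxra) at an unadjusted p under 0.05, and the F-test with adjustment also called 0. Of all 13769 genes tested limma called 1, or 0.00726%, and 1638 had an unadjusted p under 0.05. The study's methods name a fold and an F-test p, without saying on which scale the fold is taken or whether p is adjusted. Its results text speaks of adjustment. Read here as a ratio of mean FPKM above 1.2 and an unadjusted p under 0.05, these thresholds were met by Rxra alone of the 6 genes, against 6.01% of all genes (828). The study reported fewer changed mRNAs, so this reading does not reproduce its count. Without HFD2D replicate 2 or without HFD2D replicate 3 no member met them, and without HFD1D replicate 3 Rara joined Rxra. Groups did not overlap in 2 of the 6 genes, both higher in HFD2D, against 19.4% of all genes in either direction. The median log2 fold change of the 6 genes was 0.13, beside 0.00 over all genes. The study names Rara and Stra8 among genes with lower expression in HFD2D than in HFD1D. In the values read here the Rara mean was higher in HFD2D, and the Stra8 mean was slightly lower with overlapping groups. The study also reported both proteins lower by immunoblot, a measure not analysed here.

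**Figure D2:**
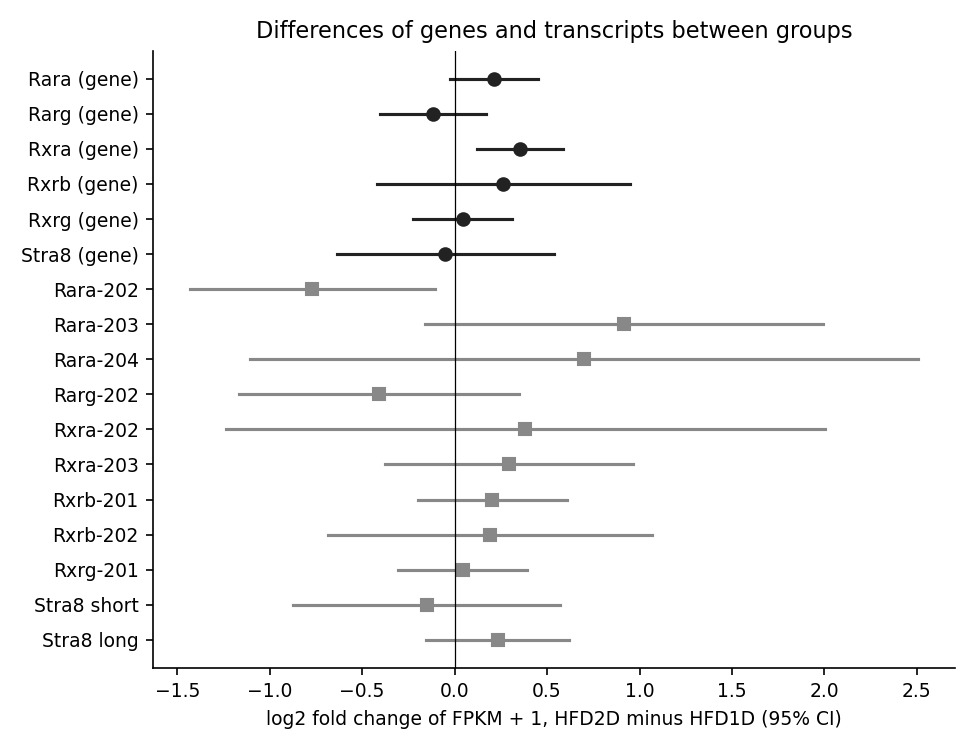
Log2 fold change in FPKM + 1, HFD2D minus HFD1D, of the member genes and of their tested transcripts, as points with 95% confidence intervals from limma. Of the genes, Rxra alone has an interval above 0 (0.122 to 0.584), and of the transcripts Rara-202 alone has an interval below 0 (-1.433 to -0.106).

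The Rara sum and its alpha2-type transcript had opposite orders. Rara-202 had 3.38, 3.57 and 1.68 FPKM in HFD1D and 1.54, 1.33 and 0.826 FPKM in HFD2D. All HFD2D values lay under all HFD1D values, though HFD1D replicate 3 was close to the HFD2D range. The log2 fold change was -0.77 (SE 0.27, 95% confidence interval -1.433 to -0.106), and with an adjusted p of 0.596 it did not pass. Over the libraries left out in turn it ran from -1.02 to -0.63.

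The 3 alpha1-type transcripts were listed unevenly. Rara-203, whose start is the most upstream, was listed at 0 in all HFD1D libraries and at 1.10, 0 and 2.20 FPKM in HFD2D. Rara-204 was listed at 0, 0 and 2.61 FPKM in HFD1D and at 1.84, 3.65 and 0.177 FPKM in HFD2D. Rara-201 had 0.368, 0.0718 and 0.0810 FPKM in HFD1D and 0.125, 0.10 and 1.22 FPKM in HFD2D, too low for the test. These 3 have the same coding sequence, so they were also summed. Their noncoding 5′ exons differ, and the last exon of Rara-203 and Rara-204 ends 46.3 kilobases from the start of Rara-203, while that of Rara-201 and Rara-202 runs on to 47.1 kilobases. The sum was 0.368, 0.0718 and 2.69 FPKM in HFD1D and 3.07, 3.75 and 3.60 FPKM in HFD2D. HFD1D replicates 1 and 2 thus had almost no listed alpha1-type transcript, and HFD1D replicate 3 was close to the HFD2D testes.

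As a share of the Rara sum, Rara-202 took 90.2%, 98.0% and 38.4% in HFD1D and 33.5%, 26.2% and 18.7% in HFD2D. The groups did not overlap, with means of 75.6% ± 32.4 and 26.1% ± 7.41 (SD, n = 3). The difference of -49.4 percentage points had p = 0.1 in a two-sided exact permutation test, which is the lowest value 3 libraries against 3 can reach. It was -68.0 points without HFD1D replicate 3 and -38.2 points without HFD1D replicate 2. FPKM of overlapping transcripts is an estimate that divides shared fragments among them, and how far this division moved the shares was not tested.

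**Figure D3:**
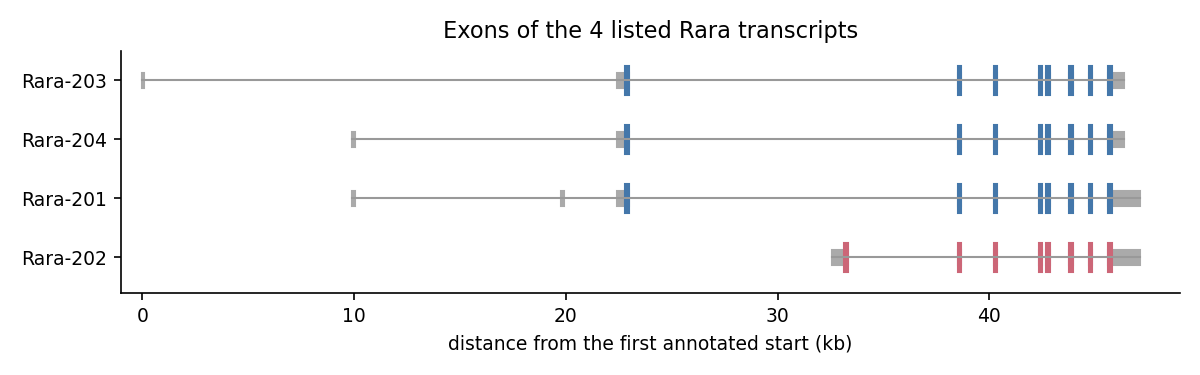
Exons of the 4 listed Rara transcripts, drawn to scale as distance from the start of Rara-203 in kilobases, with coding parts taller and coloured (blue for the alpha1 type, red for Rara-202) and noncoding parts grey. Rara-202 starts downstream of the other 3, and all 4 share the later coding exons.

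Of the other genes with more than 1 listed transcript, Rxra-202 (ENSMUST00000100251.8) and Rxra-203 (ENSMUST00000113934.1) have identical coding sequences of 1317 bases and differ in their 5′ exons. Rxra-203 had 3.46, 6.87 and 6.05 FPKM in HFD1D and 5.57, 6.22 and 8.65 FPKM in HFD2D. Rxra-202 was listed at 2.12, 0 and 0.666 FPKM in HFD1D and at 2.53, 2.26 and 0 FPKM in HFD2D. Neither transcript alone separated the groups, unlike their sum. The log2 fold change of Rxra-203 was 0.30 (-0.376 to 0.967, adjusted p = 0.748), but 0.049 without HFD1D replicate 1, 0.13 without HFD2D replicate 3 and 0.46 without HFD1D replicate 2.

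Rarg-202 was nearly the whole of Rarg in 5 libraries, at 93.2% to 100% of the sum, but 2.72% in HFD2D replicate 3. There Rarg-201 was listed at 0.870 FPKM and Rarg-202 at 0.0244, while in the other 5 libraries Rarg-201 had at most 0.0644 FPKM. The Rarg sum of that library, 0.894 FPKM, was within the range of the others. Over both groups the share of Rarg-202 had an exact permutation p of 0.5.

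Rxrb-201 (ENSMUST00000044858.14) had 0.553, 0.437 and 0.564 FPKM in HFD1D and 0.636, 0.582 and 1.06 FPKM in HFD2D, without overlap, and a log2 fold change of 0.20 (-0.198 to 0.607, adjusted p = 0.744) that was 0.085 without HFD2D replicate 3. Rxrb-202 (ENSMUST00000116612.2) had 1.69, 0.134 and 1.32 FPKM in HFD1D and 1.36, 1.0 and 1.22 FPKM in HFD2D. The low Rxrb level of HFD1D replicate 2 thus came with a low Rxrb-202, whose share there was 23.5% against 53.6% to 75.3% elsewhere.

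The short Stra8 transcript was the more abundant in each library. It had 4.14, 7.0 and 8.02 FPKM in HFD1D against 6.57, 6.45 and 3.80 FPKM in HFD2D (log2 fold change -0.15, -0.874 to 0.572, adjusted p = 0.886). The long transcript had 1.44, 1.53 and 1.93 FPKM in HFD1D and 2.10, 2.45 and 1.74 FPKM in HFD2D (0.23, -0.154 to 0.621, adjusted p = 0.707). The remaining listed transcript, ENSMUST00000185102.1, whose coding sequence is incomplete at the 3′ end (the partial transcript), was at 0 to 0.759 FPKM. As a share of the Stra8 sum, the short transcript took 74.3%, 75.3% and 77.2% in HFD1D and 73.7%, 72.5% and 62.6% in HFD2D. These do not overlap, but HFD1D replicate 1 and HFD2D replicate 1 are only narrowly apart. The difference of -6.01 percentage points had an exact permutation p of 0.1, and was -2.51 points without HFD2D replicate 3. Of the 13 isoform shares compared in the 5 genes, this and Rara-202 were the ones without overlap, against 11.9% of the 19465 isoform shares of all tested genes with 2 or more listed transcripts. Shares of a gene with 2 listed transcripts are complements of each other.

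**Figure D4:**
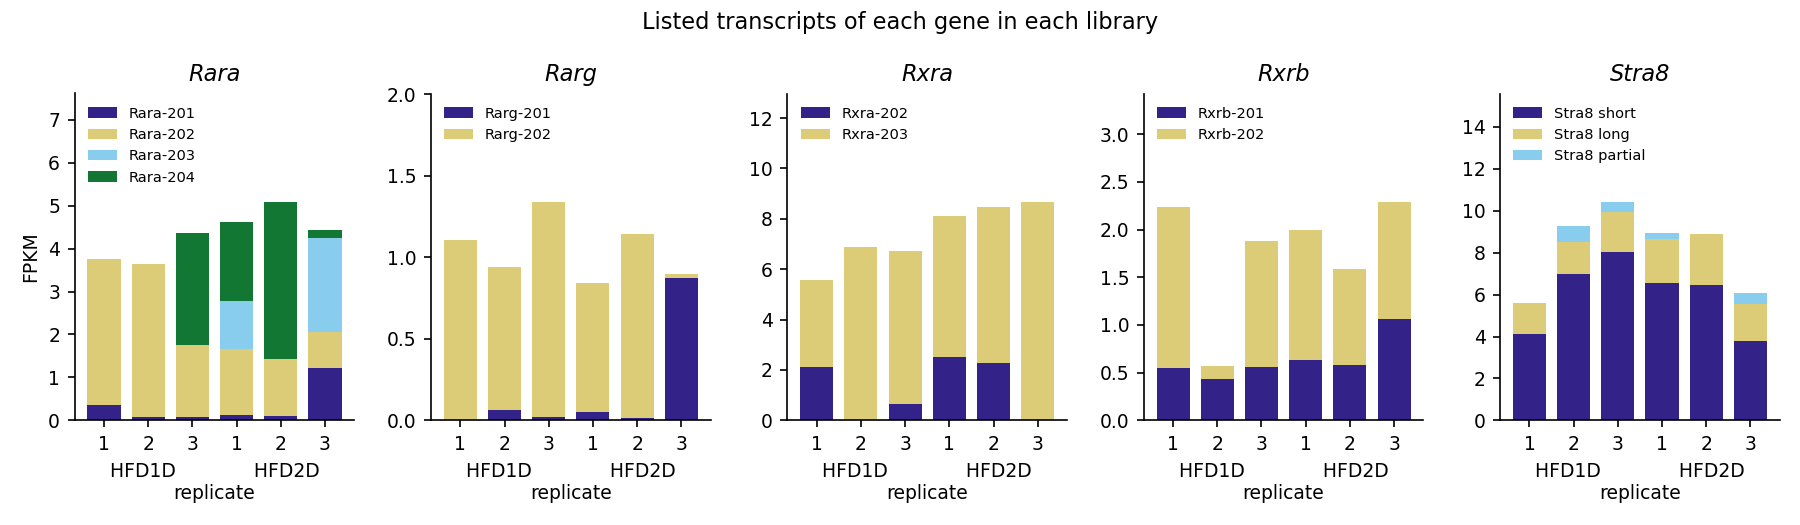
FPKM of the listed transcripts of Rara, Rarg, Rxra, Rxrb and Stra8 in each of the 6 libraries, stacked to the gene's sum, with the Stra8 transcripts named short, long and partial as in the text. Rara is mostly Rara-202 in HFD1D replicates 1 and 2 and mostly other transcripts in the remaining 4 libraries, and Rarg is Rarg-201 in HFD2D replicate 3 alone.

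Of the 14 member transcripts 11 were abundant enough to test. Limma called 0 of the 11, with 1 (Rara-202) at an unadjusted p under 0.05, and the adjusted F-test also called 0. Of the 25322 transcripts tested, limma called 0.13%, and 2086 had an unadjusted p under 0.05. At the study's thresholds 0 of the 11 were counted, against 5.93% of all. Groups did not overlap for 2 of the 11, Rara-202 and Rxrb-201, against 15.9% of all.

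Lists of genes that work with the receptors were described by their counts, with no test of the list, and limma called no gene of any list. Receptors that use RXR as partner were higher in 5 of 7 genes, with a median log2 fold change of 0.10. The oxysterol receptor Nr1h2 had the smallest p of these (4.68 ± 0.91 and 6.40 ± 0.781 FPKM, adjusted p = 0.395). The orphan receptor Nr4a1 was the most abundant, at 8.86 ± 0.381 and 8.77 ± 0.799 FPKM.

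Corepressors were higher in 7 of 8 genes, with a median log2 fold change of 0.17. Gps2, a subunit of the Ncor complexes and the most abundant of the list, had 68.3 ± 2.43 FPKM in HFD1D and 92.5 ± 7.62 in HFD2D (SD, n = 3). Its groups did not overlap, and its log2 fold change of 0.43 (SE 0.07) had an adjusted p of 0.299. Ncor1, the core scaffold that binds the unliganded receptor, was the other gene without overlap (35.6 ± 1.52 and 40.2 ± 0.889 FPKM, adjusted p = 0.39). That makes 2 of the 8, both higher, against 19.4% of all genes in either direction. Summed corepressor levels were 167 to 175 FPKM in HFD1D and 192 to 209 in HFD2D.

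Coactivators were higher in 6 of 8 genes, with a median log2 fold change of 0.15. The acetyltransferase Kat2b had the smallest p (13.3 ± 1.99 and 16.4 ± 0.588 FPKM, adjusted p = 0.399). With Kat2b, 2 of the 8 had groups without overlap, both higher, against 19.4% of all genes in either direction. Med1, the Mediator subunit that contacts nuclear receptors, was the most abundant, at 23.7 ± 1.63 and 22.5 ± 3.02 FPKM (adjusted p = 0.803).

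Genes that make, break down or bind retinoic acid were higher in 7 of the 10 tested, with a median log2 fold change of 0.08. Cyp26b1, which degrades retinoic acid in peritubular cells, had the smallest p, at 5.31 ± 1.29 and 6.68 ± 0.747 FPKM (adjusted p = 0.524). Aldh1a1, an enzyme of synthesis, was the most abundant, at 89.0 or more FPKM in each library (adjusted p = 0.88). Groups did not overlap in 2 of the 10, in opposite directions, against 19.4% of all genes. Aldh1a2, the synthesis enzyme best known from germ cells, had 52.7 ± 1.53 and 55.9 ± 1.48 FPKM (adjusted p = 0.575), and Rdh10, which makes the retinal for synthesis, had 5.05 ± 0.129 and 4.50 ± 0.436 FPKM (adjusted p = 0.573).

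Known target genes of retinoic acid went both ways, 3 higher and 5 lower of 8. Among them 2 higher and 2 lower genes had groups without overlap, against 19.4% of all genes in either direction. Rarres2, which encodes the secreted protein chemerin and is induced by retinoids in human skin, had 3.44 ± 0.55 FPKM in HFD1D and 6.44 ± 1.08 in HFD2D. Its groups did not overlap, and its log2 fold change of 0.74 (SE 0.15) had an adjusted p of 0.329. Kit, the receptor of differentiating spermatogonia, had 3.25 ± 0.274 and 2.60 ± 0.285 FPKM, without overlap in the opposite direction (adjusted p = 0.431). Rec8, a meiotic cohesin that answers retinoic acid independently of Stra8, was the most abundant, at 23.6 ± 2.43 and 25.9 ± 2.59 FPKM (adjusted p = 0.637).

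Partners of Stra8 and genes of meiotic entry were lower in 13 of 15 (median log2 fold change -0.12), where 49.8% of all genes were lower. Groups did not overlap in 6 of the 15, all lower in HFD2D, as in 11.0% of all genes. Sycp3, which builds the lateral elements of the synaptonemal complex, was the most abundant. It had 227 ± 23.4 FPKM in HFD1D and 183 ± 14.1 in HFD2D (SD, n = 3, adjusted p = 0.374). Meiosin, the direct partner of Stra8, is annotated under the older symbol Gm4969 and had 4.47 ± 0.511 and 3.82 ± 1.07 FPKM with overlap (adjusted p = 0.657). Summed over the list, levels were 1000 to 1087 FPKM in HFD1D and 931 to 973 in HFD2D. Stra8 itself did not follow this order.

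**Figure D5:**
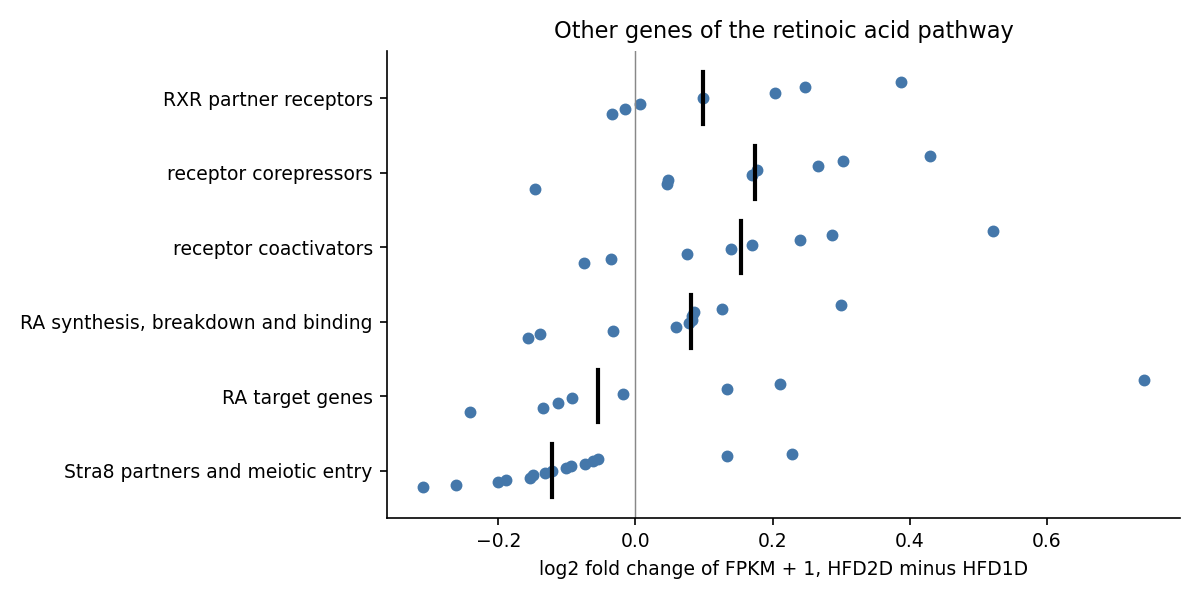
Log2 fold change in FPKM + 1, HFD2D minus HFD1D, of each tested gene in the 6 lists around the receptors, a point per gene and a black bar at the median of the list. Points of the meiotic entry list lie mostly below 0 (13 of 15) and those of the corepressors mostly above 0 (7 of 8), and none of them passed the adjusted threshold.

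The testis is a mixture, and fewer cells of a type and less RNA per cell cannot be told apart in these values. Markers of the cell types that hold the receptors were read beside them. Of 10 Sertoli cell markers 5 were higher and 5 lower in HFD2D, and their sum was 109 to 129 FPKM in HFD1D and 102 to 124 in HFD2D. Groups did not overlap in 7 of the 10, 4 lower and 3 higher, against 19.4% of all genes in either direction. Cldn11, a junction protein of Sertoli cells and the gene of smallest p, had 34.6 ± 1.10 and 29.6 ± 0.341 FPKM (adjusted p = 0.358). On the higher side were the homeobox gene Rhox5 (10.6 ± 2.15 and 15.4 ± 2.72 FPKM), the ligand Dhh (2.67 ± 0.161 and 3.32 ± 0.151 FPKM) and the transcription factor Gata4 (4.21 ± 0.282 and 4.94 ± 0.342 FPKM), with adjusted p of 0.395, 0.393 and 0.455. Of 5 markers of undifferentiated spermatogonia 4 were lower, with sums of 24.8 to 25.6 and 22.4 to 23.2 FPKM, led by Id4, a transcriptional regulator of stem spermatogonia (17.6 ± 0.647 and 15.7 ± 0.443 FPKM, adjusted p = 0.412). Of 6 markers of differentiating spermatogonia 5 were lower, but the sum, mostly Dmrtb1 (242 ± 47.2 and 284 ± 36.7 FPKM), was 225 to 308 and 259 to 334 FPKM. Sohlh1, a transcription factor of that stage, had 1.37 ± 0.16 against 0.768 ± 0.267 FPKM (adjusted p = 0.39). Nanos2, Nanos3 and Ret, markers of undifferentiated cells, were not analysed here.

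Markers of cells outside the tubule were mostly higher beside Rxra and Rara, 6 of 6 for peritubular myoid cells (summed 148 to 203 and 179 to 216 FPKM), 5 of 7 for macrophages (36.4 to 40.2 and 37.9 to 46.5 FPKM) and 4 of 5 for endothelial cells (4.06 to 4.78 and 4.94 to 5.02 FPKM). By smallest p these lists were led by Des (0.681 ± 0.17 and 1.22 ± 0.25 FPKM), Csf1r (1.43 ± 0.0565 and 2.13 ± 0.413 FPKM) and Cdh5 (1.61 ± 0.0626 and 2.10 ± 0.262 FPKM), with adjusted p of 0.39, 0.39 and 0.416. Leydig cell markers were higher in 4 of 6 (219 to 510 and 409 to 497 FPKM), among them Star, the cholesterol carrier of steroid synthesis (14.3 ± 4.94 and 24.8 ± 6.54 FPKM, adjusted p = 0.393). Round spermatid markers were higher in 3 of 5 (460 to 492 and 491 to 535 FPKM), led by Acrbp, an acrosomal protein (71.8 ± 7.44 and 92.6 ± 3.22 FPKM, adjusted p = 0.338). Fat cell markers were higher in 3 of 3 (6.68 to 16.7 and 10.4 to 14.9 FPKM). Red cell markers were higher in 4 of 5 by log2 fold change (47.8 to 374 and 74.6 to 312 FPKM), but not all of these 4 had a higher mean FPKM. The part of these cell types in the receptor values was not tested.

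Library facts that touch these results are few. Summed FPKM was 382815 to 397147 per library, 24374 to 25372 transcripts were above 0, and the read depth is unknown. HFD2D replicate 1 stood apart in epididymal markers, with Crisp1 at 86.1 FPKM against at most 0.293 in the other libraries and Adam7 at 8.03 FPKM against 0, and its placental marker sum was 190 FPKM against 14.7 to 29.8. Without it the log2 fold change was 0.38 for Rxra and 0.23 for Rara, and both kept groups without overlap. The fewest transcripts above 0 were in HFD1D replicate 2 and HFD2D replicate 3, which are also the libraries where Rxra-202 was listed at 0.

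The genes whose levels followed each member most closely over the 6 libraries were picked from genes in a broad band of mean level around it. This is a description over so few points of a common tissue. Nearest to Rxra were Ndufb10, a respiratory complex I subunit (r = 0.979), and Zscan26 (r = 0.971), out of 10822 genes. Fip1l1, an mRNA polyadenylation factor (r = 0.983), and Mien1 (r = 0.982) were nearest to Rara. Rarg was followed by Ly6e and Rerg (r = 0.983 and 0.981). Fez2 and the autophagy kinase Ulk1 were nearest to Rxrb (r = 0.992 and 0.987), both low in HFD1D replicate 2 as Rxrb is. Stra8 was followed by Zfp428 (r = 0.998) and Polr1c, a subunit of RNA polymerases (r = 0.993). With so many genes and 6 points, 11 to 37 genes exceeded r = 0.95 for each of these 5 members.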

How the data were processed

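By the study's account, poly(A) RNA went into stranded libraries, and the authors estimated transcript levels with StringTie and Ballgown. The deposited values are FPKM for 27120 transcripts in 6 libraries. The submitters' processing notes name the build mm10, while versions and the aligner were not given in the sources used here. Without counts the depth is unknown and intervals for counting error could not be had.

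Identifiers were matched without version to GENCODE M21 (27018 found, 99.6%, of which 25779 had the same version), and gene levels are sums of listed transcripts, 14000 genes in all. Differences in log2(FPKM + 1) were tested where the mean of either group exceeded 0.5 FPKM, in 13769 genes and 25322 transcripts, with limma 3.58.1 in R 4.3.3 (eBayes with trend, group as the only factor, two-sided, Benjamini-Hochberg at 0.05). A fold change understates the change of low genes on this scale. Adjusted p-values are over all features and from limma unless another test is named, and 95% intervals are limma's. Isoform shares were compared with exact permutation tests. Tables were made with Python 3.11.15, and the fits were tested on simulated data.

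All members and their listed transcripts are named, with genes from each list (by rule the one of smallest p and the most abundant, of which the report gives those beside a member's result), the 2 genes most like each member with a mean of at least 1 FPKM, Aldh1a1, Aldh1a2, Kit, Meiosin, Crisp1 and Adam7. The coding start of Rara-202 is not reported here. Ncor1, Rdh10, Rhox5, Dhh and Gata4 were chosen after their values were seen. The members and lists were chosen with earlier results of these data known. Alternatives were a pseudocount of 0.1, no filter or a floor of 1 FPKM, quantile normalization, median-ratio rescaling, a replicate block, limma with no trend, the adjusted F-test, shares of summed FPKM and each library left out in turn.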

Additional observations from a re-analysis of the deposited data

How the results depend on the processing

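No member gene or transcript was called by limma or the adjusted F-test under any alternative. At the study's thresholds the count of member genes was 1, but 2 with median-ratio rescaling (Rara joined Rxra) and 0 to 2 with a library left out. With the fold on the log2(FPKM + 1) scale, an alternative chosen after seeing the data, it was 1 again, and 663 of all genes met the thresholds instead of 828. For member transcripts it was 0, but 1 with quantile normalization (Rara-202) and 0 to 1 with a library left out. Over all features, limma called 3 genes with a floor of 1 FPKM, with median-ratio rescaling or without trend, and 0 to 3 with a library left out, and 11 to 86 transcripts with a library left out.

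Replicate numbers did not pair the samples, since same-numbered libraries had deviations with r of -0.0759, -0.00177 and -0.163. With the replicate block limma called 0 genes and 1 transcript, against 1 and 33 without it, and 1 member transcript (Rara-202) met the study's thresholds.

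Directions turned as follows. Quantile normalization gave Rxrg a log2 fold change of -0.015. Shares of summed FPKM gave 5.78 percentage points for Rxrb-201 and -5.78 for Rxrb-202. With a library left out, gene log2 fold changes ran from -0.29 to 0.11 for Stra8, -0.032 to 0.095 for Rxrg and its transcript Rxrg-201, and -0.056 to 0.47 for Rxrb, and transcript values from -0.014 to 0.97 for Rxra-202, -0.39 to 0.064 for the short Stra8 transcript and -0.19 to 0.43 for Rxrb-202. Share differences ran from -2.20 to 10.6 points for Rara-201, -4.66 to 14.4 for Rxra-202, -14.4 to 4.66 for Rxra-203, -14.9 to 11.1 for Rxrb-201, -11.1 to 14.9 for Rxrb-202 and -2.78 to 1.70 for the partial Stra8 transcript. The cause was not tested. Rxra, Rara and Rarg as genes and the shares of Rara-202 and of the short Stra8 transcript kept their direction under all alternatives run. Unknown depth limits the low members most.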
